A study of Mus musculus with 360 samples.

Results

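Saa1, Lrg1, Lcn2, Hp and S100a8, acute phase and neutrophil genes, were followed by every probe that carries their symbols in a targeted RNA panel, in 5 tissues of mice exposed to 1,4-dichlorobenzene (1,4-DCB) or 1,2-dichlorobenzene (1,2-DCB). These 5 of the 2759 symbols on the panel were covered by 6 of its 3154 probes: 1 probe each for Saa1 (Saa1_29368), Lrg1 (Lrg1_29971), Lcn2 (Lcn2_30771) and Hp (Hp_29396), and 2 probes for S100a8 (S100a8_84136 and S100a8_29319). The mice were female B6D2F1/Crl (BDF-1), 9 weeks old, with tissues taken on study day 5. The 1,4-DCB series had exposed animals at 400, 150, 50, 10 and 1 ppm and its own animals at 0 ppm. The 1,2-DCB series had exposed animals at 250, 100, 30, 10 and 1 ppm and, again, its own animals at 0 ppm. No genetic change or second agent is labelled in any group, and the route of exposure is not given in the sources used here.

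The assay was TempO-Seq with the Mouse S1500+ v1.2 panel, in which pairs of detector oligonucleotides are ligated on a target RNA, amplified and sequenced. Of 360 libraries, 326 that the labels mark as used were analysed: 61 of liver, 51 of kidney, 70 of lung, 72 of heart and 72 of ovary. One library is 1 tissue of 1 animal. Liver groups held 2 to 9 animals, kidney groups 2 to 6, lung groups 4 to 10, and heart and ovary groups 5 to 10. A library held 4341679 to 46480385 deposited counts. Levels are in CPM, counts scaled to a common library size, on the trimmed-mean scale of their tissue unless another scale is named, changes are log2 differences ± SE of exposed against 0 ppm animals of the same series, and a probe is called at an adjusted p under 0.05 from edgeR's quasi-likelihood test with Benjamini-Hochberg adjustment over all probes of the tissue. The p-values measure the spread between animals of these groups. Intervals are 95% intervals from the SE. Leave-out fits dropped at most 1 animal of each exposed group of a tissue at once, or at most 1 control of each series. Values given without a single animal come from these fits. The exception is control animal 4 of the 1,2-DCB series, which was also dropped alone. In whole tissue, fewer cells of a type and less RNA per cell cannot be told apart.

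The acute phase response is the change in plasma protein production, mainly by hepatocytes, that follows infection or injury. Interleukin 6 acts on hepatocytes through STAT3, and interleukin 1 and tumour necrosis factor act through NF-kB and C/EBP factors. Saa1 encodes serum amyloid A, an apolipoprotein of high-density lipoprotein, and Hp encodes haptoglobin, which binds free haemoglobin. Lrg1 encodes leucine-rich alpha-2-glycoprotein, a secreted protein of hepatocytes that neutrophil granules also hold. Lcn2 encodes lipocalin 2, which binds bacterial siderophores and is made by neutrophil precursors, epithelia and hepatocytes. S100a8 encodes 1 chain of calprotectin, a calcium-binding complex of neutrophils and monocytes whose other chain is S100a9.

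Promoter windows, the 250 bases upstream of the annotated start, were found in the RefSeq table (build GRCm38.p6) for 4 of the 5 genes. Those of Saa1, Lcn2 and S100a8 are shown 5′ to 3′ on the gene's strand because the results turn on these genes, with those of Saa2 and S100a9 as the paralog and the partner they are set against. Capitals mark matches to 2 C/EBP motifs, TTGCNNAA and TTNNGNAAT, searched on both strands; in Saa1 and Saa2 the 2 matches overlap.
Saa1, chr7:46742981-46743230, minus strand: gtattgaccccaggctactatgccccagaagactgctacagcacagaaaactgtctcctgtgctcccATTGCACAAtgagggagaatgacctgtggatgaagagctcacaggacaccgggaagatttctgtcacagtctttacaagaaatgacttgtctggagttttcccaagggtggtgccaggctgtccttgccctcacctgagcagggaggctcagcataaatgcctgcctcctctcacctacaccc
Saa2, chr7:46751583-46751832, plus strand: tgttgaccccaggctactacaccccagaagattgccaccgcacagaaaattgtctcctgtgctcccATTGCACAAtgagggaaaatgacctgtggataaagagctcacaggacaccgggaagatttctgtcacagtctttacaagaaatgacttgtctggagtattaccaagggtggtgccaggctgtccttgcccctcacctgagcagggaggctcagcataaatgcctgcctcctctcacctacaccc
Lcn2, chr2:32387740-32387989, minus strand: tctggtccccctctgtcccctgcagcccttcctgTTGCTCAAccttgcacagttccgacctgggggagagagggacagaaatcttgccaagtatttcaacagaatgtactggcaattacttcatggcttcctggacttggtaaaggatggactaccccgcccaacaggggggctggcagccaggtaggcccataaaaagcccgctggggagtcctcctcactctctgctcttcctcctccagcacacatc
S100a8, chr3:90668821-90669070, plus strand: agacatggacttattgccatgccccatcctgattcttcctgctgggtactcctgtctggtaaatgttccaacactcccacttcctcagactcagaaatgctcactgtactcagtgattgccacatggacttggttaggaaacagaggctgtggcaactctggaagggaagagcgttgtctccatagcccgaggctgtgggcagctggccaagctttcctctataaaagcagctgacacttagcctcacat
S100a9, chr3:90695722-90695971, minus strand: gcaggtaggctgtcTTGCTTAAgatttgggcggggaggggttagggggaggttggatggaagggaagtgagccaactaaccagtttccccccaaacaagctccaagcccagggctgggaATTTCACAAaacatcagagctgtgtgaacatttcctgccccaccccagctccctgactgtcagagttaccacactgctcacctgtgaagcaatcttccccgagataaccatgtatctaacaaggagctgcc

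TTGCNNAA was held by the windows of Saa1, Saa2, Lcn2 and S100a9 and by 9.55% of 27025 promoter windows of that length, and TTNNGNAAT by those of Saa1, Saa2 and S100a9 and by 10.3% of all. The STAT motif TTCNNNGAA (7.18% of all windows) and the NF-kB motif GGGNNTTCC (4.88%), both searched on both strands, were in none of the 4 windows of Saa1, Lrg1, Lcn2 and S100a8 or in those of Saa2 and S100a9, and the S100a8 and Lrg1 windows held no match to any motif searched. The Saa1 and Saa2 windows were identical at 238 bases, 95.6% of those aligned, and those of S100a8 and S100a9 at 58.1%. The transcripts of Saa1 and Saa2 are near copies, so how far each probe reads the other's RNA is uncertain.

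In control animals each gene had its own tissue order. On a scale shared by all 5 tissues, Saa1 ran from 388 to 16604 CPM in the 16 control livers, with a median of 714, and its median was under 1 CPM in the 4 other tissues. In heart, 11 of 20 control libraries held no Saa1 count, and the Saa1 probe was too low to be tested there. Hp had a median of 54441 CPM in liver and 12616 in lung, against 813 in ovary, 50.7 in kidney and 18.1 in heart. The ranges of liver and lung (42299 to 81987 and 8871 to 16008 CPM) did not overlap each other or those of the other tissues. Heart Hp ran from 1.99 to 946 CPM, the widest fold range of any tissue for this gene, while kidney Hp ran from 18.3 to 1729 CPM.

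Lrg1 was highest in liver, at 226 to 769 CPM, and its heart (34.9 to 71.2) and lung (24.6 to 62.1) ranges overlapped below it. Ovary (median 6.4) and kidney (1.90) had the lowest Lrg1 levels. Lcn2 was highest in lung, with a median of 1043 CPM and a range of 877 to 2405, then in liver with a median of 391. Ovary Lcn2 overlapped every other tissue, running from 25.7 to 10054 CPM around a median of 248. S100a8 was also highest in lung, at a median of 470 CPM, ahead of 26.3 in liver, 16.2 in heart, 5.40 in kidney and 3.49 in ovary, with overlapping ranges in the last 4. The second S100a8 probe was close to silent: it had counts in 88 of 360 libraries, at most 20, against 359 of 360 for the first probe, and passed the filter on low counts in lung alone. S100a8 below means the first probe.

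One control animal stood apart. Animal 4 of the 0 ppm group of the 1,2-DCB series had a liver Saa1 level of 7972 CPM, against 181 to 527 CPM in the 8 other controls of its group, 26.7 times their median. Its liver Saa2 (4469 CPM, against 80.7 to 223), Lcn2 (2022, against 90.5 to 205), S100a8 (222, against 5.94 to 26.9) and S100a9 (5.55, against 0 to 1.74) were likewise above every other control. Lrg1 (369, against 123.7 to 278) and Hp (39363, against 19869 to 29778) were 2.30 and 1.55 times the median of the others. In the ovary of the same animal S100a8 stood at 1208 CPM, against 2.21 to 21.8 in the 9 others, and S100a9 at 35.4, against 0 to 0.697. In its lung S100a8 was 6910 CPM, against 177 to 1792, and Lcn2 was 2996, against 1095 to 1499, while Hp was the lowest of the group at 11051, against 15027 to 20152. Its heart S100a8 (55.1 CPM, against 4.56 to 27.3) was above the others, and its heart Hp, Lcn2 and Lrg1 were within their range. The labels mark no quality issue for these 4 libraries, while the kidney of this animal is among the libraries not used, with potential tissue contamination as the reason. Calls of the 1,2-DCB series that change without this animal are given both ways below.

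**Figure D1:**
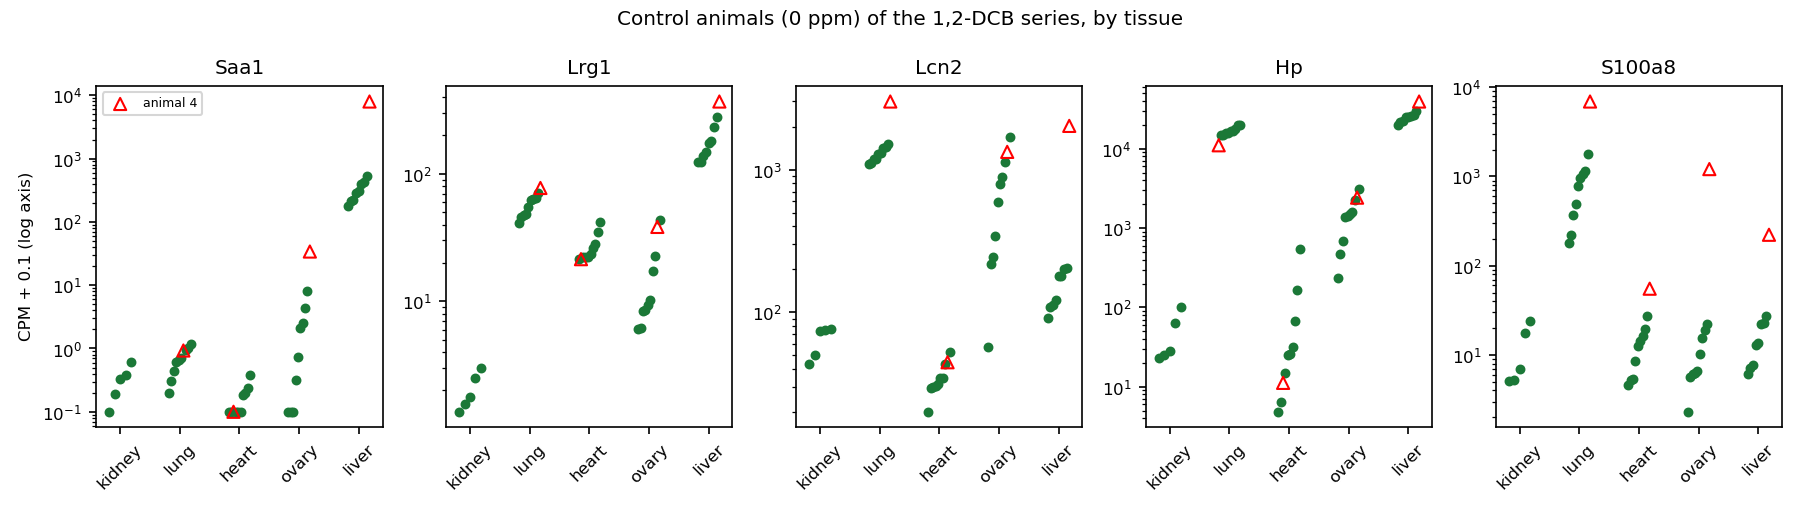
CPM (plus 0.1, log axis) of the 5 members in each 0 ppm animal of the 1,2-DCB series, scaled within each tissue; red triangles are animal 4 and green points the other animals. In liver the triangle lies above all other animals for every gene, in ovary it lies far above them for S100a8 (1208 CPM), and in lung it is lowest for Hp (11051 CPM).

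In liver, no member was called at 150 ppm 1,4-DCB or below in the fit of all groups. At 400 ppm S100a8 rose 27.9-fold, while Lrg1 fell to 0.263 and Saa1 to 0.228 of the control level. Thus 1 of 5 members rose and 2 fell at 400 ppm, where 31.6% of the 2601 probes tested in liver were called, 18% (468) as higher and 13.6% as lower. The called share was 5.96% at 150 ppm, 0.769% at 50 ppm, and 0 at 10 and 1 ppm by edgeR and by DESeq2. At 10 and 1 ppm, 2.92% and 5.42% of probes had an unadjusted edgeR p under 0.05. Fitted with the 1,4-DCB animals alone, Saa1 (-1.57, edgeR adjusted p = 0.018), Lrg1 (-0.63, 0.032) and Hp (-0.39, 0.040) were called as lower at 150 ppm. Hp at 150 ppm was also called by DESeq2 (-0.39, DESeq2 adjusted p = 0.035).

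S100a8 stood at 206, 245, 258, 454 and 658 CPM in the 5 livers at 400 ppm, against 3.52 to 33 CPM (median 10.9) in the 7 control livers of the series. The groups did not overlap, as was so for 20.8% of all probes in either direction. The change was 4.80 ± 0.58 (edgeR adjusted p = 1.2e-09, interval 3.66 to 5.94). At 150 ppm the 4 livers had 7.93, 9.12, 11.8 and 13.5 CPM, inside the control range, and the group medians at 50, 10 and 1 ppm were 8.67, 8.28 and 11.9 CPM. The slope of 0.49 log2 per doubling of ppm + 1 (edgeR adjusted p = 1.6e-07) was -0.05 without the 400 ppm animals (edgeR adjusted p = 0.84).

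S100a9, the partner chain, was not called. It had 0.0327 to 0.739 CPM (median 0.367) at 400 ppm and 0 to 1.19 CPM (median 0.347) in the controls, a change of -0.21 ± 0.90 (edgeR adjusted p = 0.89). Summed over the libraries of a group, 45885 counts of S100a8 stood beside 51 of S100a9 at 400 ppm, a ratio of 899.7, and 2288 beside 83 in the controls, a ratio of 27.6. In the 59 groups of all tissues other than the 400 ppm livers this ratio ran from 11 to 76.5, with a median of 26. Per library, the log2 ratio (0.5 counts added to each probe) was 8.61 to 12.3 at 400 ppm and 3.90 to 7.96 in the controls, with no overlap and a difference of means of 5.04.

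The second S100a8 probe, although far weaker, was also counted more often at 400 ppm. It had 1, 3, 5, 9 and 16 counts in the 5 livers, against 3 counts in 1 of the 7 control livers and none in the 4 livers at 150 ppm. Summed over the 5 livers, 34 counts of it stood beside 45885 of the first probe. In the 20 control lungs its median was 0.0675 CPM, beside 470 CPM of the first probe on the scale shared by all tissues.

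**Figure D2:**
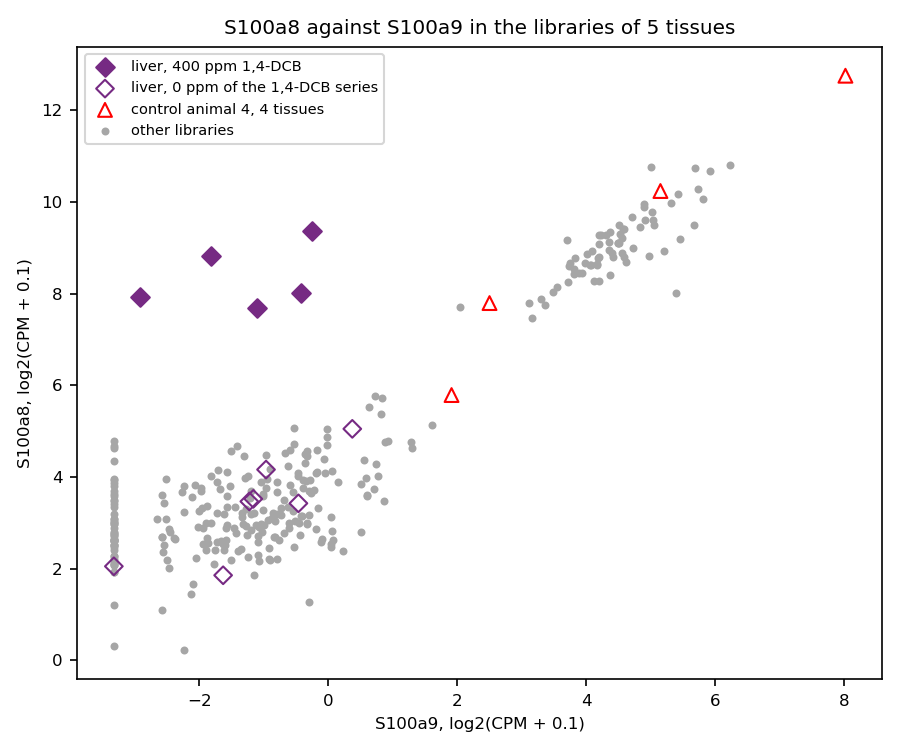
S100a8 against S100a9 as log2(CPM + 0.1), each point 1 library of the 5 tissues; filled diamonds are livers at 400 ppm 1,4-DCB, open diamonds livers at 0 ppm of that series, red triangles control animal 4 of the 1,2-DCB series. The 5 filled diamonds (206 to 658 CPM of S100a8) lie off the band that the other libraries form, and the triangles lie along it.

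No listed neutrophil marker was called as higher in these livers. Of 29 marker genes listed for neutrophils, 15 had a probe and 11 probes were tested in liver; at 400 ppm none of them rose and 4 fell, among them Il1b (the cytokine interleukin 1 beta, -1.48 ± 0.43), Cybb (a subunit of the phagocyte oxidase, -0.83 ± 0.25) and Fpr1 (a receptor for formylated bacterial peptides, -0.94 ± 0.31). The summed level of the 9 tested markers that are not members was 35.3 to 40.6 CPM (median 39.6) at 400 ppm and 52.1 to 77.0 CPM (median 72.5) in the controls. Ctsg, a granule protease, and Cxcr2, the receptor for neutrophil chemokines, had no count in any of the 5 libraries at 400 ppm; Ctsg had none in the 7 controls either and Cxcr2 none in 6 of them, and neither was tested.

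Lrg1 fell to 29.6, 33.8, 39, 41.1 and 50.5 CPM at 400 ppm, against 102 to 209 CPM (median 138.2) in the control livers. The groups lay apart, and the change was -1.92 ± 0.22 (edgeR adjusted p = 2.2e-10). The group medians were 175 at 1 ppm, 144.3 at 10 ppm, 111.3 at 50 ppm and 101 at 150 ppm. The change of -0.61 at 150 ppm was not called in the fit of all groups (edgeR adjusted p = 0.11). It was called with the 1,4-DCB animals alone (-0.63, 0.032) and without control animal 4 of the 1,2-DCB series (-0.63, 0.048). Leave-out fits without the control animals numbered 4, or without control animal 7 of this series, also gave calls (0.046 and 0.047). Over the 6 levels the slope was -0.17 per doubling of ppm + 1 (edgeR adjusted p = 3.8e-07), and 23.7% of probes had a called slope.

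Saa1 was 97.7, 110, 140, 150 and 176 CPM at 400 ppm, against 211 to 1683 CPM (median 318) in the controls. Every exposed liver lay below every control, and the change was -2.14 ± 0.67 (edgeR adjusted p = 0.010). Group medians at 1, 10, 50 and 150 ppm were 330, 256, 172 and 163 CPM, none of them called against the controls in the fit of all groups. The -1.55 at 150 ppm was called without the control animals numbered 4 (edgeR adjusted p = 0.016) and with the 1,4-DCB animals alone (0.018). The slope was -0.22 (edgeR adjusted p = 0.0037). Its paralog Saa2 had a change of -1.22 at 400 ppm, which was not called (edgeR adjusted p = 0.17).

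Lcn2 and Hp were not called at 400 ppm. Lcn2 was 78.1, 89.4, 129.1, 129.9 and 136.7 CPM, against 104 to 365 CPM (median 222) in the controls, overlapping groups with a change of -0.95 ± 0.48 (edgeR adjusted p = 0.13, interval -1.89 to -0.01). Fitted with the 1,4-DCB animals alone, the same change had an edgeR adjusted p of 0.015, and without control animal 4 of the other series, which enters the shared estimate of the spread, 0.0081. Hp was 20944 to 25590 CPM and 22142 to 34488 CPM in the controls, a change of -0.13 ± 0.12 (edgeR adjusted p = 0.44) whose interval, -0.36 to 0.10, bounds it closely.

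**Figure D3:**
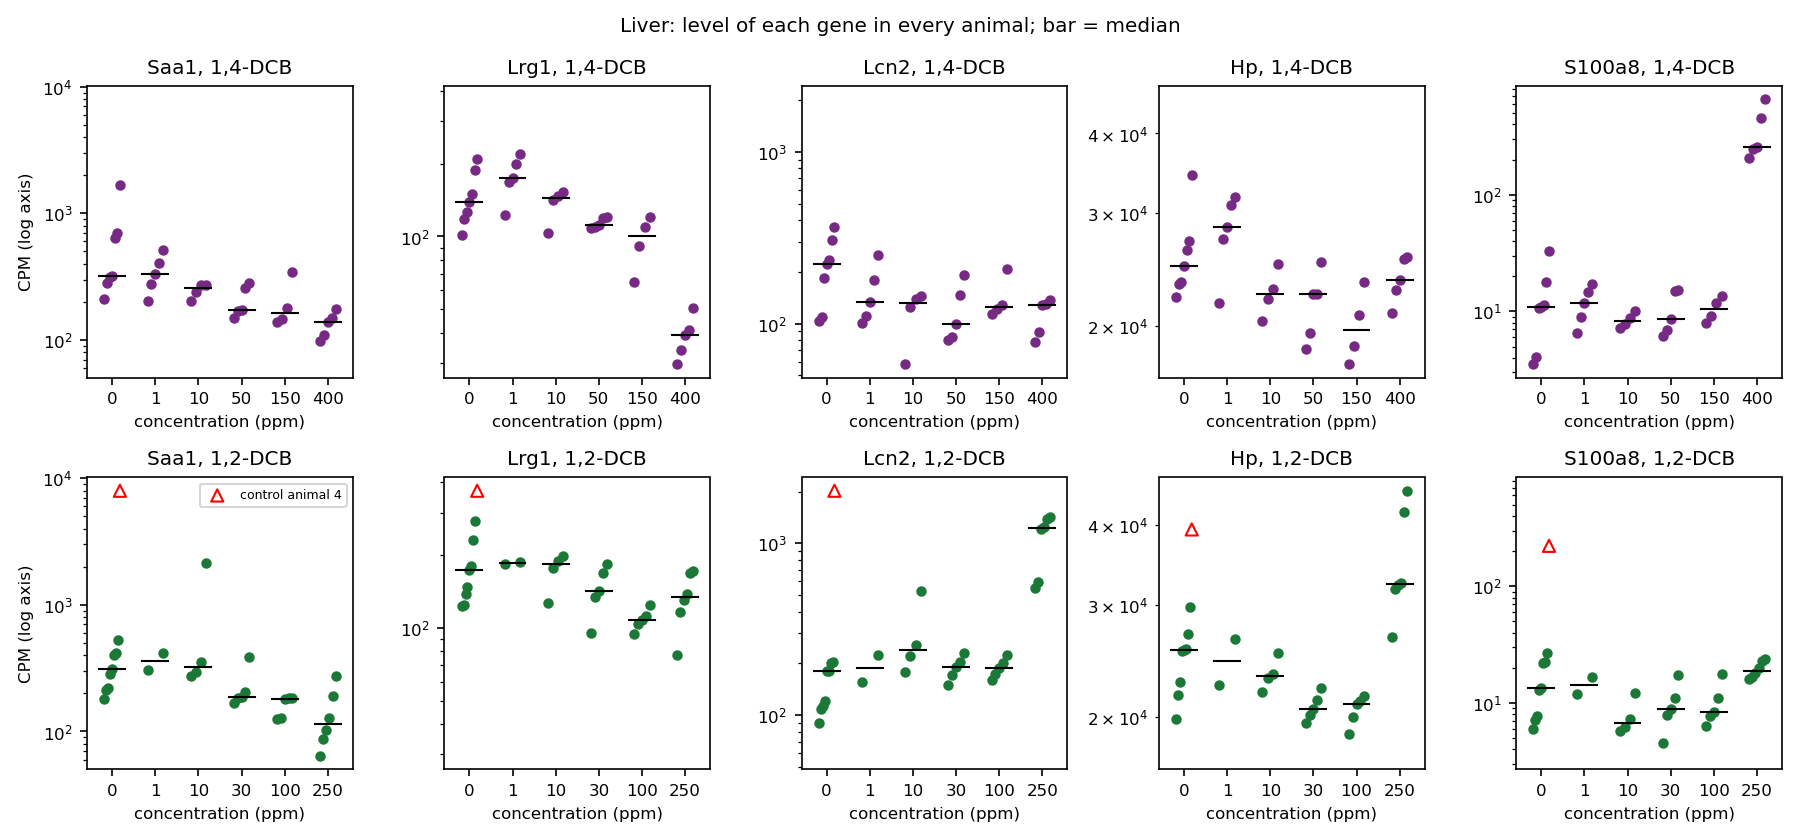
CPM (log axis) in each liver by concentration in ppm, 1,4-DCB in the upper row and 1,2-DCB in the lower; bars are group medians and the red triangle is control animal 4. Apart from control animal 4, S100a8 is high at 400 ppm 1,4-DCB alone (206 to 658 CPM) and Lcn2 at 250 ppm 1,2-DCB (550 to 1420 CPM), and Saa1 and Lrg1 are lowest at 400 ppm 1,4-DCB within their row.

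In liver at 250 ppm 1,2-DCB, Lcn2 rose 2.99-fold and Hp 1.33-fold, Saa1 fell to 0.12 and Lrg1 to 0.682 of the control level, and S100a8 was not called. This made 2 members higher and 2 lower of 5, where 49.8% of the 2601 probes were called, 25.1% as higher and 24.6% as lower. Without control animal 4 it was 2 higher and 1 lower, beside 50.3% of the probes, and Lrg1 was then not called.

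Lcn2 was 550 to 1420 CPM (median 1230) in the 6 livers at 250 ppm and 90.5 to 2022 CPM (median 180) in the 9 controls, 8 of which were at or under 205. Only animal 4 made the groups overlap. The change was 1.58 ± 0.42 (edgeR adjusted p = 0.0012) with all controls and 2.83 ± 0.27 (2.8e-13) without animal 4, whose fellow controls averaged 150 ± 46.3 CPM (SD, n = 8). At 100, 30 and 1 ppm the medians of 189, 191 and 189 CPM were within the control range. With the clock gene Dbp as a covariate and animal 4 kept, Lcn2 was called as lower at 100 ppm (-1.27, edgeR adjusted p = 0.035) and 30 ppm (-1.50, 0.035). No fit with this covariate left animal 4 out. Without the covariate, the leave-out fits ran from -1.06 to 0.30 at 100 ppm and from -1.04 to 0.34 at 30 ppm. Of 3 clock genes in liver, 2 were higher and 1 lower at 10, 30, 100 and 250 ppm without animal 4. The part of time of day in the liver changes was not tested further.

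At 10 ppm the 4 livers had 179, 221, 257 and 525.5 CPM of Lcn2, with a change of -0.28 (edgeR adjusted p = 0.84) that turned to 0.98 (0.037) without animal 4. Of these livers, 3 lay above the 8 other controls. The share of all probes called at 10 ppm was 5.34%, and 3.85% without animal 4.

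Hp was 26658 to 45256 CPM (median 32338) at 250 ppm and 19869 to 39363 CPM (median 25478) in the controls, a change of 0.41 ± 0.11 (edgeR adjusted p = 0.0008), or 0.51 ± 0.10 (2.0e-05) without animal 4. The groups overlapped. At 100 ppm Hp went the other way, at 18836 to 21600 CPM, with a change of -0.36 ± 0.11 (edgeR adjusted p = 0.020; -0.30, 0.048, without animal 4), and at 30 ppm its -0.34 was called only with that animal included (edgeR adjusted p = 0.038, and 0.16 without it). Without the 250 ppm animals the Hp slope in this series was -0.06 per doubling, against 0.02 (edgeR adjusted p = 0.30) with them.

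Saa1 at 250 ppm was 64.2 to 272 CPM (median 114.7) and 181 to 7972 CPM (median 313) in the controls. Its change of -3.06 ± 0.64 (edgeR adjusted p = 5.2e-05) was -1.18 ± 0.38 (0.0076) without animal 4, still lower but with a smaller size. At 100 ppm the livers had 125.1, 128.8, 179, 183 and 183 CPM, and the change was -2.87 ± 0.68 (edgeR adjusted p = 0.0014), or -1.03 (0.072) without that animal. At 30 ppm -2.37 (edgeR adjusted p = 0.011) became -0.50 (0.51). The shares of probes called were 18.8% at 100 ppm and 11.7% at 30 ppm. The slope was -0.39 (edgeR adjusted p = 7.1e-07), and -0.18 (0.0060) without animal 4, where 41.3% of probes had a called slope with all animals.

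Lrg1 at 250 ppm was 77.4 to 171 CPM (median 134.3) and 123.7 to 369 CPM (median 174) in the controls, a change of -0.55 ± 0.19 (edgeR adjusted p = 0.011) that was not called without animal 4 (-0.39 ± 0.17, 0.054) or without exposed animal 506R (-0.42, 0.070). At 100 ppm its levels were 94.7, 104.4, 108.1, 112.1 and 124.1 CPM, and the change of -0.85 ± 0.20 (edgeR adjusted p = 0.0014) was also called without animal 4 (-0.71, 0.0036). S100a8 was 16.1 to 23.7 CPM (median 18.9) at 250 ppm and 5.94 to 222 CPM (median 13.5) in the controls, a change of -0.96 ± 0.50 (edgeR adjusted p = 0.11) that turned to 0.41 (0.34) without animal 4. The S100a8 changes at 100, 30 and 10 ppm (-1.89, -1.95 and -2.27, edgeR adjusted p = 0.012, 0.015 and 0.023) rested on that animal: without it they were -0.56, -0.58 and -0.92, and none was called (0.35, 0.40 and 0.25).

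The responses of the isomers, which differ in whether the chlorines sit on opposite or adjacent ring carbons, were compared in liver at 1 and 10 ppm, the concentrations they share. None of the 5 differences between the changes under 1,4-DCB and under 1,2-DCB was called at either concentration, where 0% and 1.58% of probes were (at 1 ppm also 0 by DESeq2, with 52 probes at an unadjusted edgeR p under 0.05). The intervals were wide for most genes: at 10 ppm, 0.06 (-0.53 to 0.66) for Lrg1, -0.03 (-0.38 to 0.31) for Hp, -0.63 (-1.99 to 0.74) for Lcn2, -0.64 (-2.44 to 1.15) for Saa1 and 1.65 (0.02 to 3.28) for S100a8. Without control animal 4, Lcn2 (-1.88, edgeR adjusted p = 0.0084) and Saa1 (-2.52, 0.012) were called at 10 ppm. The highest doses are unmatched, 400 ppm of 1,4-DCB and 250 ppm of 1,2-DCB, so the next values describe these 2 exposures. The change of S100a8 was higher by 5.76 ± 0.77 under 1,4-DCB than under 1,2-DCB (edgeR adjusted p = 6.0e-08; 4.39 without animal 4). The differences were -2.53 ± 0.64 for Lcn2 (0.0036; -3.79 ± 0.40 without animal 4), -1.37 ± 0.28 for Lrg1 (0.00023), -0.55 ± 0.16 for Hp (0.011) and 0.92 ± 0.83 for Saa1 (0.51, interval -0.72 to 2.56; -0.96, 0.23, without animal 4). That contrast called 17.2% of all probes. With all deposited libraries, its differences for Lrg1 (-1.38, edgeR adjusted p = 0.053) and Hp (-0.40, 0.66) were not called. No member differed by the test between the controls of the 2 series in liver, a contrast that called 0.577%.

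Of the other acute phase genes in liver, more fell than rose. At 400 ppm 1,4-DCB, 1 of 17 tested probes of the acute phase list rose and 7 fell, with a median change of -0.23, beside -0.03 over all probes. The probe that rose was Orm3, an orosomucoid gene (0.96 ± 0.26, edgeR adjusted p = 0.0030; 14.3 to 23.9 CPM, against 5.71 to 15.2 CPM in the controls). Those that fell included Serpina3k, a serine protease inhibitor (-1.14 ± 0.20), the fibrinogen chains Fgg (-0.58) and Fgb (-0.70) and complement C3 (-0.42). At 250 ppm 1,2-DCB, 2 of 17 rose and 9 fell, with a median of -0.39 beside -0.02, and the counts were the same without animal 4. Those that rose were Mt1, a metallothionein (0.52), and Serpina3m (0.38), and those that fell included Serpina3k (-1.46), Fgg (-1.15), Fga (-1.04) and Crp, C-reactive protein (-0.93). Saa2 fell by 3.50, or by 1.37 without animal 4. Hepatocyte markers fell as well, 7 of the 8 tested at 250 ppm 1,2-DCB. Red cell genes fell further, 6 of 6 probes with a median change of -3.22, and their summed level was 237 to 3504 CPM (median 496) at 250 ppm and 5293 to 19647 CPM (median 11049) in the controls, without overlap. They also fell in the other tissues at 250 ppm, by 5 of 7 probes in kidney, 8 of 8 in lung, 6 of 8 in heart and 3 of 5 in ovary, and none of 6 was called in liver at 400 ppm 1,4-DCB. The part of hepatocytes and red cells in the members' changes was not tested.

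With all animals, more probes of the signalling lists fell than rose in liver, where 13.6% of all probes fell at 400 ppm 1,4-DCB and 24.6% at 250 ppm 1,2-DCB. At 400 ppm 1,4-DCB, none of 10 tested probes of the list of interleukin 6, STAT3 and C/EBP signalling rose and 3 fell: Il6 itself (-2.29 ± 0.77, edgeR adjusted p = 0.018), Stat3 (-0.35 ± 0.13, 0.036) and the kinase gene Jak1 (-0.19). Of 21 probes of the interleukin 1, TNF and NF-kB list none rose and 5 fell, among them Nfkbia, the NF-kB inhibitor (-0.75 ± 0.11), and Il1r1, the interleukin 1 receptor (-0.84). At 250 ppm 1,2-DCB, none of the 10 rose and only Stat3 fell (-0.30; no probe of 9 was called without animal 4). Of the 21, 1 rose and 7 fell (3 and 6 without animal 4), with the monocyte chemokine Ccl2 higher (1.14) and Nfkbia (-0.92) and Il1b (-1.89) lower.

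Macrophage and monocyte markers were mostly higher at 250 ppm 1,2-DCB, where Lcn2 and Hp rose: 4 of 6 tested probes rose (5 without animal 4) and none fell, among them Cd68, a lysosomal protein of macrophages (1.68 ± 0.20), 2 probes of the chemokine receptor Ccr2 (2.10 and 1.98) and Ly6c2 (1.38). Their summed level was 309 to 1508 CPM (median 993) at 250 ppm and 319 to 1666 CPM (median 427) in the controls. On the neutrophil list 2 of 11 probes rose, the members Lcn2 and Hp, and Il1b and Camp fell; without animal 4, 5 rose, among them Cybb (0.45) beside the members, and Il1b alone fell. The summed neutrophil level was 47.2 to 140 CPM (median 100.5) at 250 ppm and 64.2 to 320 CPM (median 73.6) in the controls. At 400 ppm 1,4-DCB only Lyz2, a lysozyme gene, was called among the 6 macrophage probes, with a change of -0.92 ± 0.30, and the macrophage sum was 207 to 259 CPM (median 217), against 375 to 499 CPM (median 399). The part of these cells in the members' changes was not tested.

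In lung, Lcn2 was the one member called at 250 ppm 1,2-DCB, where it rose. Lcn2 was 1433 to 5719 CPM (median 2450) in 6 lungs and 1095 to 2996 CPM (median 1294) in 10 controls, of which animal 4 was the highest and the next stood at 1499. The groups overlapped. The change was 0.99 ± 0.18 (edgeR adjusted p = 1.6e-05), or 1.17 ± 0.17 (8.9e-08) without animal 4, and 1 of 6 member probes was called where 32.6% of the 2756 tested were. Its slope of 0.09 (edgeR adjusted p = 0.0012, 33.5% of probes called) was -0.01 without the 250 ppm animals. At 400 ppm 1,4-DCB the 5 lungs had 1569, 1623, 1716, 2238 and 2592 CPM of Lcn2, all above the 1119 to 1501 CPM of the 10 controls, as was so in either direction for 1.92% of probes. The change of 0.55 ± 0.20 was not called (edgeR adjusted p = 0.12) beside 2.61% of probes that were; fitted with the 1,4-DCB animals alone, its edgeR adjusted p was 0.0038. The difference between the 2 changes of Lcn2 was -0.44 (interval -0.98 to 0.10).

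In the fit of all groups, S100a8 in lung was called once, at 100 ppm 1,2-DCB. It had 390, 440, 442, 485 and 622 CPM there, against 177 to 6910 CPM (median 865) in the controls. The exposed lungs lay inside the control range, and the change of -1.55 ± 0.50 (edgeR adjusted p = 0.044, 6.53% of probes called) was -0.71 (0.33) without animal 4. It was also not called when control animal 3 or 10 or any exposed lung was left out (edgeR adjusted p = 0.053 to 0.13). At 10 ppm S100a8 was called as lower by DESeq2 (-1.56, DESeq2 adjusted p = 0.038) and without control animal 6 or 9 (edgeR adjusted p = 0.041 and 0.047). At 1 ppm it was called by DESeq2 (-1.82, DESeq2 adjusted p = 0.039) and with all deposited libraries (-1.44, edgeR adjusted p = 0.032). Without animal 4, no member was called in lung at 1 or 10 ppm by edgeR. Lung Hp (-0.04 at 400 ppm 1,4-DCB and -0.02 at 250 ppm 1,2-DCB), Lrg1 (0.52 and 0.38) and Saa1, under 3 CPM in every group, were not called; Lrg1 at 250 ppm was (0.54, edgeR adjusted p = 0.011) without exposed animal 507. Il6, the cytokine of the acute phase response, rose in the same lungs at 250 ppm (2.46 ± 0.34, edgeR adjusted p = 2.0e-08), as did Ccl2 (2.07 ± 0.31). They were the one probe that rose of 11 on the interleukin 6 list and of 23 on the interleukin 1, TNF and NF-kB list, where 2 and 7 fell (2 and 5 without animal 4), the C/EBP genes Cebpb (-0.65) and Cebpd (-1.12) and the NF-kB genes Nfkbia (-0.36) and Relb (-0.41) among them. All 8 red cell probes fell in these lungs as well, with a sum of 12446 to 237926 CPM (median 41338) at 250 ppm and 224809 to 556931 CPM (median 416761) in the controls. Of the acute phase list 2 of 13 probes rose and none fell, Mt1 (0.73) and the protease inhibitor Serpina3n (0.72). Of 13 neutrophil probes Lcn2 rose, and Fpr1 and Camp fell, with Camp not called without animal 4.

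In heart, Hp rose and Lcn2 and Lrg1 fell at the high concentrations of 1,4-DCB. At 400 ppm 1 of the 4 members tested rose and 2 fell, where 13% of 2454 probes (318) were called, 8.84% as higher and 4.12% as lower. At 150 ppm 1 rose and 1 fell, where 27.2% were called, 15.3% as higher and 11.9% as lower.

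Hp in heart was 12.9, 16.8, 29, 221 and 1281 CPM at 400 ppm and 6.29, 27.7, 256, 455 and 1379 CPM at 150 ppm, against 1.14 to 28.3 CPM (median 6.41) in 10 controls. Both exposed groups overlapped the controls, with 3 hearts of 5 above all controls in each. The changes were 5.21 ± 1.28 (edgeR adjusted p = 0.0049) and 5.65 ± 1.29 (0.0016). Without exposed animal 501 the change at 400 ppm was 3.06 (edgeR adjusted p = 0.13). High single hearts also occurred elsewhere: the controls of the 1,2-DCB series reached 551 CPM and its 250 ppm hearts 1390 CPM.

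Across the 72 hearts, log2 Hp followed genes of fat cells, with a Pearson r of 0.97 for Car3, 0.96 for Cfd (adipsin), 0.93 for Cidec, a lipid droplet protein, and 0.92 for Adipoq (adiponectin); these 4 were picked after their values were seen. Their summed level was 14.5 to 400 CPM (median 25.4) at 400 ppm and 4.43 to 1660 CPM (median 192) at 150 ppm, against 1.14 to 16.4 CPM (median 4.06) in the controls. The heart with 1379 CPM of Hp had 1062 CPM of Cfd, and the one with 1281 CPM had 203 CPM of Cfd, 156.3 of Car3 and 765 of Cyp2f2, a gene of lung and liver that ran from 0 to 2.97 CPM in the controls. The part of fat, lung or liver RNA in the Hp change was not tested.

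**Figure D4:**
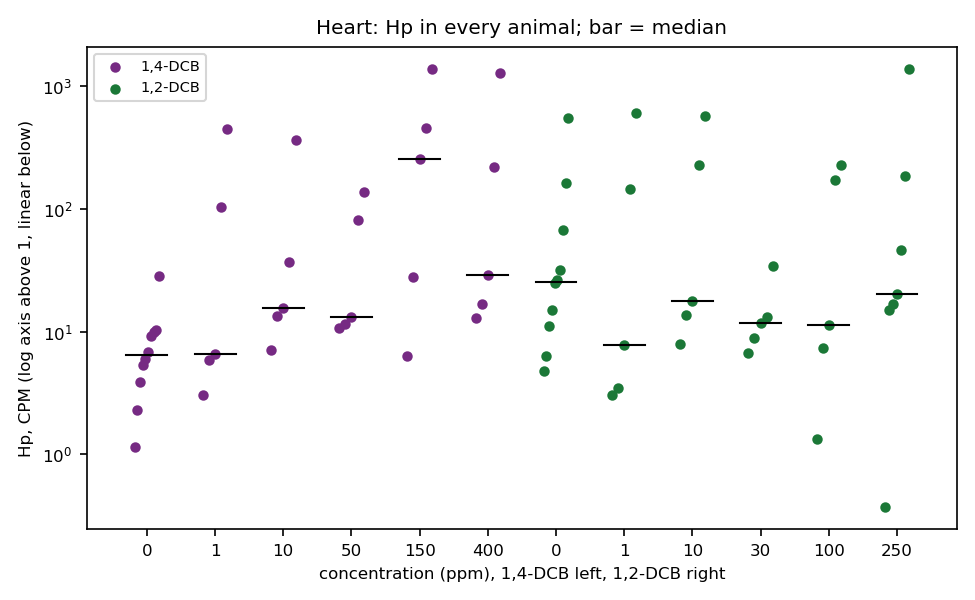
Hp CPM in each heart by concentration in ppm, 1,4-DCB on the left and 1,2-DCB on the right (axis linear below 1 and logarithmic above). Single hearts above 100 CPM occur in most groups of both series, whereas the 0 ppm hearts of the 1,4-DCB series stay at or under 28.3 CPM.

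Lcn2 in heart was 14.1, 16.7, 17, 17.3 and 29.4 CPM at 400 ppm 1,4-DCB, against 22.7 to 66.1 CPM (median 38.1). One exposed heart lay inside the control range. The changes were -1.14 ± 0.26 at 400 ppm (edgeR adjusted p = 0.0023) and -0.84 ± 0.25 at 150 ppm (0.011; -0.67, 0.12, without exposed animal 405). Lrg1 at 400 ppm was 18.1, 18.6, 20, 23.1 and 23.6 CPM, below all 10 controls at 24.7 to 37.4 CPM, as was so in either direction for 2.97% of probes, and its change was -0.61 ± 0.15 (edgeR adjusted p = 0.0041). In the 1,2-DCB series Lcn2 rose at 10 ppm, to 47, 62.9, 71.8, 98.5 and 99.6 CPM, against 20 to 52.9 CPM in the controls (1.12 ± 0.24, edgeR adjusted p = 0.0040, with 0.978% of probes called). With the clock gene Dbp as a covariate that change was 0.51 (edgeR adjusted p = 0.55). In heart 2 of 3 clock genes were higher at 10, 30, 100 and 250 ppm (1 of 3 at 100 ppm without animal 4). Without animal 4, 2 of 3 were also higher in lung at 10, 30, 100 and 250 ppm. The same was so in kidney at 10, 30 and 250 ppm and in ovary at 10 and 250 ppm. The part of time of day was not tested further in any tissue. At 250 ppm none of the 4 members was called beside 8.88% of probes. Without animal 4, beside 7.78%, both S100a8 (1.34, edgeR adjusted p = 0.026) and Lcn2 (0.68, 0.048) were. S100a8 there was 12 to 54.4 CPM (median 33.6) and 4.56 to 55.1 CPM (median 13.3) in the controls. Lcn2 was the one member whose changes under the isomers differed in heart: by -1.81 ± 0.35 at the matched 10 ppm (edgeR adjusted p = 0.0026, 1.14% of probes called; -1.17, 0.58, with Dbp) and by -1.77 ± 0.34 between 400 ppm of 1,4-DCB and 250 ppm of 1,2-DCB (0.0030, 1.34% of probes).

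In ovary the calls of S100a8 turned on animal 4. S100a8 was 7.92 to 27 CPM (median 15.4) at 250 ppm 1,2-DCB and 2.21 to 1208 CPM (median 8.37) in the controls. The change of -2.90 ± 0.84 (edgeR adjusted p = 0.014, 15.9% of 2713 probes called) turned to 0.78 (0.36) without animal 4, as did the difference between the controls of the 2 series, -3.63 (0.0018, 6.16% of probes) with it and 0.03 (0.98) without. The 1,2-DCB slopes of S100a8 (-0.27, edgeR adjusted p = 0.018) and Saa1 (-0.28, 0.014) were called beside 21.6% of probes, and without animal 4 they were 0.21 (0.014) and -0.10 (0.44). Without the 250 ppm animals the S100a8 slope was -0.26 (edgeR adjusted p = 0.15). No member was called at 400 ppm 1,4-DCB, where 0.479% of probes were. Lcn2 in ovary varied widely within groups: control animal 10 of the 1,4-DCB series had 22044 CPM and animal 203 at 10 ppm had 21180 CPM, while the group medians of both series lay between 391 and 1239 CPM. The Lcn2 change at 10 ppm, 0.87, was 3.23 (edgeR adjusted p = 0.0016) without control animal 10 and -1.75, not called, without exposed animal 203.

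In kidney no member was called at any concentration of either isomer by the edgeR fit of all used libraries without a covariate, where 1.03% of 2729 probes were called at 400 ppm 1,4-DCB, 11.7% at 250 ppm 1,2-DCB and at most 0.696% at the others. Hp at 400 ppm was 21.1, 52.5, 55.2, 128.1 and 145.2 CPM, against 32.1 to 2419 CPM (median 253) in 6 controls, overlapping groups with a change of -2.84 ± 0.83 (edgeR adjusted p = 0.096; 0.048 and 0.049 without control animal 6 or 8; -1.38, 0.49, without control animal 2). The Hp slope of -0.34 in that series was called (edgeR adjusted p = 0.011, 2.20% of probes), and -0.29 (0.41) with all deposited libraries. Across the 51 kidneys log2 Hp was nearest to Car3 (Pearson r 0.84), Fabp4 (0.82) and Cfd (0.78), a comparison chosen after the values were seen. Car3 and Cfd are among the fat cell genes named for heart. The part of fat RNA in the kidney Hp values was not tested. Control animal 2 of that series was the highest of its group for Saa1 (46 CPM), Lrg1 (18), Lcn2 (2417) and Hp (2419). The controls of the 1,4-DCB series were above those of the 1,2-DCB series for Hp (3.58, edgeR adjusted p = 0.026) and Saa1 (5.09, 0.047), where 0.879% of probes were called; with all deposited libraries these were 2.33 (0.21) and 2.50 (0.31). With Dbp as a covariate, Hp (3.37, edgeR adjusted p = 0.011), Lrg1 (2.09, 0.012) and Saa1 (5.48, 0.013) were called as higher at 250 ppm 1,2-DCB, and Hp (-3.59, 0.026) and Saa1 (-5.07, 0.037) as lower at 1 ppm 1,4-DCB. With all deposited libraries, Hp (5.75, edgeR adjusted p = 2.2e-05), Lrg1 (3.78, 7.1e-07) and Saa1 (5.65, 0.0002) were called at 30 ppm 1,2-DCB, where 1 of the added kidneys, that of animal 302, is marked as an outlier in the labels. Saa1 at 150 ppm 1,4-DCB was at most 0.0927 CPM, below all 6 controls, and was not called (-7.92 ± 1.78, edgeR adjusted p = 0.15; 0.041 without control animal 8). Lcn2 at 400 ppm reached 573 CPM in animal 505, and its change of -1.59 was -3.50 (edgeR adjusted p = 0.027) without that animal and 1.63 (0.12) without control animal 2.

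The changes in each tissue were then set against that in liver. S100a8 separated liver from all 4 other tissues at 400 ppm 1,4-DCB: its change minus that in liver was -4.90 ± 0.76 in lung, -4.87 ± 0.79 in kidney, -4.71 ± 1.12 in ovary and -4.22 ± 0.75 in heart (edgeR adjusted p = 2.1e-07, 6.9e-07, 0.00071 and 5.2e-06). These contrasts called 24.6% of probes for lung, 15.5% for kidney, 15.5% for ovary and 23% for heart. The change of Lrg1 was above that in liver in lung (2.63 at 400 ppm and 1.15 at 250 ppm, edgeR adjusted p = 1.7e-11 and 0.00043) and in heart (1.37 and 0.63, 7.7e-06 and 0.023; the last 0.43, 0.12, without animal 4). With the animal as a block, since the tissues came from the same animals, all these differences were also called.

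Saa1 at 250 ppm 1,2-DCB had a change above that in liver in lung (3.79, edgeR adjusted p = 0.00076; 2.02, 0.021, without animal 4) and in kidney (4.97, 0.022; 3.22, 0.072, with the block, and 3.14, 0.11, without animal 4). Control medians of Saa1 were 0.479 CPM in lung, 0.312 in kidney and 714 in liver on the scale shared by all tissues. The lung and kidney changes of Saa1 thus rest on low counts. For Lcn2, which rose in liver at 250 ppm, no difference was called with all animals beside 38.6% of probes for lung, 31.8% for kidney, 33.2% for ovary and 32.4% for heart. With the animal as a block Lcn2 was lower than in liver in all 4 tissues (-1.09 in lung, -3.10 in kidney, -2.82 in ovary and -1.65 in heart), and likewise without animal 4 (-1.44, -3.11, -3.12 and -2.06). At 400 ppm Lcn2 in lung was above liver by 1.69 (edgeR adjusted p = 0.0070). The Hp difference of heart from liver at 400 ppm, 5.41 (0.0032), was not called with the block (3.08, 0.16), and that of kidney from liver, -2.68 (0.0059), was (-2.62, 0.047). S100a8 in heart was above liver at 250 ppm by 1.97 (0.012), not called with the block (1.20, 0.052) or without animal 4 (1.04, 0.14).

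**Figure D5:**
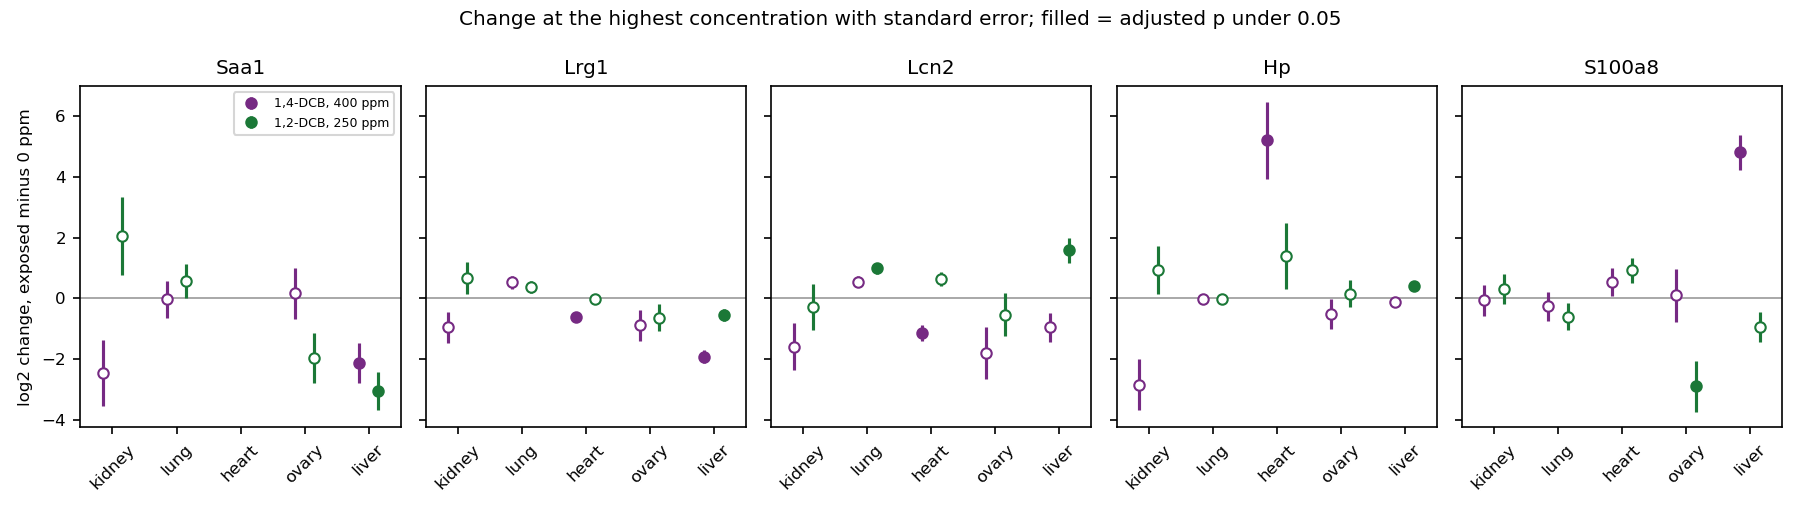
Log2 change ± SE of each member at 400 ppm 1,4-DCB and 250 ppm 1,2-DCB against its 0 ppm animals, by tissue (kidney, lung, heart, ovary, liver); filled points have an edgeR adjusted p under 0.05. S100a8 in liver (4.80) and Hp in heart (5.21) are the high filled points under 1,4-DCB. The low filled S100a8 point in ovary under 1,2-DCB (-2.90) turns sign without control animal 4, and so does the open one in liver.

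The genes most like each member across all 61 livers differed from member to member. By Pearson r of log2 CPM, Saa1 was nearest to Saa2 (0.91), Cd74 (0.66) and H2-T23 (0.64), and Lrg1 to Atp6ap1 (0.86), Fcgr3 (0.74) and Sod3 (0.73). Lcn2 was nearest to Chil3 (0.80), Mpeg1 (0.78) and Capg (0.73), and Hp to Lcn2 (0.67), G6pdx (0.66) and Chil3 (0.63). S100a8 was nearest to Elovl6 (0.74), Sybu (0.72) and Cyp2c65 (0.71), with S100a9 not among its nearest 3. By ranks (Spearman rho) several pairs were weaker, at 0.36 for S100a8 with Elovl6, 0.51 for Lcn2 with Chil3 and 0.47 for Hp with Lcn2. Others stayed near their Pearson r, at 0.70 for S100a8 with Sybu and 0.68 for Saa1 with H2-T23. In the 70 lungs S100a8 was nearest to S100a9 (0.86), Il1b (0.75) and Slfn4 (0.73), and Lcn2 to Il6 (0.76), Ccl2 (0.75) and Ccl12 (0.74). These values describe libraries that share exposures, depth and animals, and carry no test.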

How the data were processed

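The authors deposited 1 table of whole-number read counts per probe, adjusted for attenuation and not scaled between libraries; per the submitters' processing notes Bowtie 1.3.1 was used, and the build or manifest is not given in the sources used here. Hp values were all multiples of 5, a factor undone in an alternative. Libraries marked as not used (21 of kidney, 11 of liver, 2 of lung) entered only an alternative and the values of that kind given below. Groups were tissue, isomer and concentration as labelled. The members and gene lists were chosen with earlier results of these data known, so no list is independent support.

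Counts were tested in R 4.3.3 with edgeR 4.0.16 (limma 3.58.1): TMM scaling, filterByExpr with a minimum of 10 counts, 1 fit per tissue over its 12 groups, quasi-likelihood tests, Benjamini-Hochberg adjustment over the 2454 to 2756 probes of a tissue, calls at 0.05. Slopes used log2(ppm + 1), isomer differences were contrasts of the same fit, and tissue differences came from joint fits with liver. Correlations used log2 CPM with a prior count of 2. DESeq2 1.42.0 was an alternative. Pairing across tissues comes from the animal numbers of the labels, since 1 animal gave all its tissues; the animal block was an alternative. Scripts were tested on simulated data. Reads carry no molecular identifiers. Depth was 14116843 to 40289222 counts per liver library, 8023374 to 23485676 for kidney, 12446510 to 46480385 for lung, 7817849 to 29379812 for heart and 4341679 to 13091634 for ovary. Named genes were the members, fixed partner genes, up to 4 called rises and 4 falls by smallest p per list, and the 3 most correlated genes per member; results of a few listed genes are not reported here. Python 3.11.15 with pandas 2.3.3, scipy 1.17.1 and matplotlib 3.10.9 made the descriptions and figures.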

Additional observations from a re-analysis of the deposited data

Results flagged for a closer look

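Member probes were examined in groups of 4 to 10 libraries where their control median in the tissue was at least 1 CPM. This left out the second S100a8 probe in every tissue and Saa1 in kidney, lung and heart. Of 251 such groups, 37 had a highest or lowest library far from the rest by Dixon's gap test, 24 high and 13 low. By chance about 1 in 20 groups would. Control animal 4 of the 1,2-DCB series accounts for 6 of them: liver Saa1 (7972 CPM), Lcn2 (2022) and S100a8 (222), lung Lcn2 (2996) and, as a low value, Hp (11051), and ovary S100a8 (1208).

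Other livers that stood apart were animal 205 at 10 ppm and animal 302 at 30 ppm of 1,2-DCB for Saa1 (2130 and 388 CPM), and animal 202 at 10 ppm of 1,4-DCB, low for Lcn2 (57.95). In kidney, animal 2 of the 0 ppm 1,4-DCB group was high for Lrg1 (18 CPM) and Lcn2 (2417). Exposed kidneys of that series were high for Lrg1 in animal 101 at 1 ppm (6.63) and animal 201 at 10 ppm (3.57), high for Lcn2 in animal 204 at 10 ppm (116.9) and animal 505 at 400 ppm (573), and low for Lrg1 in animal 504 at 400 ppm (0.900). S100a8 was low in the kidney of animal 201 at 10 ppm 1,2-DCB (4.37).

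In lung, Lrg1 was low in animals 101 at 1 ppm and 507 at 250 ppm of 1,2-DCB (21.7 and 26.6 CPM), Hp was high in animal 405 at 100 ppm (25108), S100a8 in animal 305 at 30 ppm (1723), and Lcn2 in animal 302 at 50 ppm of 1,4-DCB (1714). In heart, 1,4-DCB animals stood apart for Lrg1 (24.5, low, animal 103 at 1 ppm), Lcn2 (29.4, high, animal 502 at 400 ppm) and S100a8 (6.76, low, animal 105 at 1 ppm, and 26.04, high, animal 304 at 50 ppm).

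In ovary, Lcn2 was far above its group in control animal 10 (22044 CPM) and in animal 203 at 10 ppm (21180) of the 1,4-DCB series; the second was also high for Hp (3308). Animal 105 at 1 ppm of 1,2-DCB was low for Lrg1 (2.55) and Hp (268), as was animal 304 at 30 ppm (3.55 and 347). Single ovaries also stood apart for Saa1 (2.33, high, animal 402 at 100 ppm 1,2-DCB, and 0, low, animal 204 at 10 ppm 1,4-DCB), Lrg1 (38.7, high, animal 402 at 150 ppm 1,4-DCB) and S100a8 (41.1, high, control animal 9 of the 1,4-DCB series).

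Changes under 1,4-DCB minus those under 1,2-DCB passed the edgeR test of the difference in liver for S100a8 (5.76), Lcn2 (-2.53), Lrg1 (-1.37) and Hp (-0.55) between 400 and 250 ppm, and in heart for Lcn2 at 10 ppm (-1.81) and between the highest concentrations (-1.77). Changes minus those in liver passed for S100a8 at 400 ppm in kidney (-4.87), lung (-4.90), heart (-4.22) and ovary (-4.71), and at 250 ppm in heart (1.97). They passed for Lrg1 in lung (2.63 at 400 ppm and 1.15 at 250 ppm) and heart (1.37 and 0.63), for Saa1 at 250 ppm in kidney (4.97) and lung (3.79), for Lcn2 at 400 ppm in lung (1.69), and for Hp at 400 ppm in heart (5.41) and kidney (-2.68).

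Among the 21 kidney libraries that the labels mark as not used, 16 are marked for potential tissue contamination. The kidney of animal 302 at 30 ppm 1,2-DCB, marked as an outlier, had Saa1 at 164.8 CPM, Lrg1 at 113.5 and Hp at 13852, and that of control animal 4 of the same series, marked for potential contamination, had S100a8 at 106.8, scaled by the total deposited count. Each of these was above every used control kidney, whose highest values were 52, 20.4, 2736 and 22.4 CPM.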

How the results depend on the processing

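Each of 442 member results was recomputed under the alternatives that apply to it, giving 6038 values. Of these, 5865 stayed on their side of the threshold, 76 lost a call, 85 gained one and 12 turned sign with a call on one side. The 5865 include values called in neither fit, whose sign was not compared. RLE scaling, no filter on low counts and ranked concentrations changed no call, and undoing the attenuation factors changed 1. In liver at the highest concentrations, S100a8 (4.47 to 5.24), Lrg1 (-2.04 to -1.82) and Saa1 (-2.56 to -1.61) at 400 ppm 1,4-DCB and Lcn2 (1.34 to 2.83) and Saa1 (-3.33 to -1.18) at 250 ppm 1,2-DCB kept their calls under every alternative tried, with adjusted p up to 1.2e-07, 3.8e-05, 0.0496, 0.0093 and 0.0076.

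With all deposited libraries, Hp (0.38, adjusted p = 0.27) and Lrg1 (-0.56, 0.16) at 250 ppm were not called. Lcn2 at 400 ppm was called with animals of the same compound only (-0.95), the Dbp covariate (-1.42) and without control animal 4 (-0.96); its adjusted p ran from 0.0030 to 0.27. Lrg1 at 250 ppm was -0.39 without that animal, and its adjusted p ran from 0.0053 to 0.16. The leave-out fits (77 in all tissues) dropped at most 1 animal of each exposed group, or at most 1 control of each series, at once. In liver at 250 ppm they gave 0.34 to 0.51 for Hp, 1.46 to 2.83 for Lcn2 and -0.62 to -0.39 for Lrg1. S100a8 there ran from -1.10 to 0.41 and Saa1 from -3.33 to -1.18. At 400 ppm the ranges for the same genes, in that order, were -0.17 to -0.06, -1.07 to -0.78, -2.04 to -1.82, 4.47 to 5.24 and -2.28 to -1.61.

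Without control animal 4, chosen after seeing the data, sign turned with a call on one side for Lcn2 in liver at 10 ppm 1,2-DCB. Its change there was 0.98, and -0.71 to 0.98 over the leave-out fits. Sign also turned for S100a8 in ovary at 250 ppm (0.78, with -3.05 to 0.77 over the leave-out fits and 0.79 by DESeq2). The same was so for S100a8 between the ovary controls (0.033) and for its 1,2-DCB slope in ovary (0.21). DESeq2 gave 2.34 for S100a8 in ovary at 100 ppm. Without the highest concentration, sign turned for the slopes of liver Hp (-0.060), liver Lcn2 (-0.14) and lung Lcn2 (-0.012) under 1,2-DCB and of liver S100a8 under 1,4-DCB (-0.050). DESeq2 called kidney Hp at 10, 50, 150 and 400 ppm 1,4-DCB (-3.50, -4.56, -3.98 and -2.85) and Saa1 at 1, 50 and 150 ppm. With the animal as a replicate block, 34 of 42 tissue differences stayed on their side of the threshold, 5 gained a call and 3 lost one, all given above except Saa1 in lung at 400 ppm (2.28, gained).

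The number of liver probes called at 400 ppm was 823, and 514 with all libraries. With Dbp as a covariate, heart at 400 ppm called 551 (318 without it), kidney at 400 ppm 8 (28) and at 250 ppm 203 (320), and ovary at 250 ppm 5.23% of probes (15.9%) and at 400 ppm 0 by edgeR (13 without it, 12 by DESeq2; 255 at an unadjusted p under 0.05); with animals of the same compound only, lung at 400 ppm called 5.06% (2.61%) and kidney 17. The cause of these changes was not tested. Saa1 outside liver and the second S100a8 probe were too low for small changes to be detectable at this depth.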

Other observations

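Saa2, the paralog of Saa1, varied widely within groups in ovary. In the 1,4-DCB series its level was 0.985 to 205 CPM (median 2.29) at 400 ppm and 0 to 230 CPM (median 79.1) at 150 ppm, against 0.18 to 203 CPM (median 0.760) in the 10 controls. In the 1,2-DCB series it was 0.583 to 30 CPM (median 2.85) at 250 ppm and 0.555 to 167 CPM (median 10.3) in the 10 controls. High and low ovaries thus occurred in exposed and control groups alike. Saa1 in the same ovaries stayed low, at 0.383 to 5.45 CPM at 400 ppm and 0 to 7.52 CPM in the controls of the 1,4-DCB series. In liver, by contrast, the 2 probes had a Pearson r of 0.91 over 61 libraries.

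The labels mark 11 liver libraries as not used, 9 of them for low sequencing depth. Scaled by the total deposited count, their S100a8 levels had a median of 45.2 and a highest value of 137.7 CPM. On the same scale the 16 used control livers had a median of 12.1 CPM, and their highest value was 226, that of animal 4.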
